A study of Mus musculus with 6 samples.

Results

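The immediate early AP-1 and EGR genes described here are 10 mouse genes of a class that responds early to growth factors and stress. Several, such as Fos, Jun and Egr1, are transcribed within minutes of a stimulus without new protein, while Fosl1 follows later and depends on AP-1 made first. They were given by name (Fos, Fosb, Fosl1, Fosl2, Jun, Junb, Jund, Egr1, Ier2 and Ier3) and found by their NCBI gene identifiers in the gene tables of the series. All 10 were found among the 17254 genes seen in any library, and all 10 were among the 11717 genes with a mean FPKM (fragments scaled by transcript length and library total) of at least 1, which were the genes tested.

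The cells were mouse neural stem and progenitor cells (NSPCs), an immortalised culture from neonatal brain that was expanded in N2 medium with EGF and bFGF, each at 20 ng/ml. The control group was mock-treated, the PQ group received 5 µM of the redox-cycling herbicide paraquat and the NAC group 5 mM of the thiol antioxidant N-acetylcysteine. RNA was taken after 48 h, with 2 libraries per group. All groups share the loss of the Ink/Arf locus that is part of the line, and the labels state this genotype and the C57BL/6 strain for control library 1 and PQ library 1. The comparison of an oxidant with an antioxidant addresses how redox state shapes gene expression in neural progenitors. The expected counts, which are estimates of the reads per gene, summed to 9849392 and 10040827 for control libraries 1 and 2, 10388731 and 9680436 for PQ, and 10698241 and 9907726 for NAC. The labels of control library 1 and PQ library 1 name a column kit and an Illumina sequencer, and those of the other 4 libraries name TRIZOL and a BGISEQ-500. Control and PQ thus each mix the 2 labelled protocols, while both NAC libraries carry the same one. In comparisons with NAC, treatment and labelled protocol are therefore partly confounded when all libraries are fitted without a covariate. Nothing in the labels says that the 2 libraries of a group came from separate cultures. The study's reporting summary states that RNA sequencing was replicated 2 times, which does not say whether the cultures were separate. The p-values therefore measure the spread between these libraries, which may be technical.

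AP-1 is a dimer of basic leucine zipper proteins. JUN proteins can pair with each other, whereas FOS proteins must pair with a JUN protein to bind DNA, and the makeup of the dimer sets how strongly a target is transcribed. Growth factors such as EGF and bFGF act through the ERK kinases, which switch on Fos and Egr1 through serum response factor and its ETS partners, while the stress kinases JNK and p38 act on JUN and ATF proteins. Under a steady growth factor supply, transcripts such as Fos are short-lived and low, whereas Fosl1, Fosl2 and Jund are made more steadily. In neural progenitors these genes are read as a record of mitogen and stress signalling.

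The culture was checked against marker genes. Of 7 neural stem and progenitor markers, 6 were tested, and their summed level ranged from 1033 to 1179.7 FPKM over the 6 libraries, with Fabp7, a radial glial fatty acid binding protein, the most abundant in each. Prom1, a surface marker of stem cells, lay between 0 and 0.418 CPM (counts scaled to a common library total by edgeR). Microglial markers summed to at most 4.59 FPKM and endothelial markers to at most 0.580 FPKM, and Aif1, Tmem119, Ptprc and Cdh5 had at most 3 counts in every library. The Ink/Arf locus holds Cdkn2a and Cdkn2b. The deposited counts were 137 and 162 for Cdkn2a in control, 120 and 130 in PQ, and 130 and 131 in NAC. For Cdkn2b they were 146 and 179, 166 and 179, and 120 and 145. A count per gene does not separate deleted exons from those that are left, so these values do not check the genotype.

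Promoter sequences show what the FOS and JUN genes carry near their start sites. RefSeq promoters of build GRCm38.p6 were found for 7 of the 10 genes (Fos, Fosb, Fosl2, Jun, Junb, Jund and Ier3), and the 250 bases before the start site are printed for 4 of them. Fos and Junb were higher than the control in both treated groups, Fosb differed between PQ and NAC, and Jun passed the test in no comparison. They lie at chr12:85473640-85473889 on the plus strand (Fos), and on the minus strand at chr7:19310046-19310295 (Fosb), chr4:95052223-95052472 (Jun) and chr8:84978749-84978998 (Junb). Each is given 5′ to 3′ on the gene's own strand, in lower case with the motif matches in capitals.
Fos: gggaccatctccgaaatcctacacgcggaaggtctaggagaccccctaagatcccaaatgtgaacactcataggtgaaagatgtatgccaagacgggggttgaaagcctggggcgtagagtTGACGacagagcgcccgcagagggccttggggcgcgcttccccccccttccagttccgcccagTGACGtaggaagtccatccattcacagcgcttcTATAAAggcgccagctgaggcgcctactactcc
Fosb: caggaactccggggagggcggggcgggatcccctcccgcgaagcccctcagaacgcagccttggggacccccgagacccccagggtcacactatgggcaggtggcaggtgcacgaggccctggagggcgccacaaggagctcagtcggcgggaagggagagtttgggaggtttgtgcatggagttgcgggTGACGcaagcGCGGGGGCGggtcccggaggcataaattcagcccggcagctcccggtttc
Jun: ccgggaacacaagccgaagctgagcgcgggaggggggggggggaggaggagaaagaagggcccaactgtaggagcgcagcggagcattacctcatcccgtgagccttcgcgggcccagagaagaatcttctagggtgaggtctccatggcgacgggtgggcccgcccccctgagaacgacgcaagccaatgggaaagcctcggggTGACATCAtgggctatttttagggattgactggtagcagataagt
Junb: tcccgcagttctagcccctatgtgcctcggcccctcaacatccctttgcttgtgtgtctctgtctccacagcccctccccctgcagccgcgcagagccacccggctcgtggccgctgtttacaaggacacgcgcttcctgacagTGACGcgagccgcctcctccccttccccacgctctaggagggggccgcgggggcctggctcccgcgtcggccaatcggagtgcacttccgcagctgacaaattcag

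The motifs were searched on both strands. They were the AP-1 site TGANTCA, the cyclic AMP response element TGACGTCA, its core TGACG, the Jun-type AP-1 site TGACATCA, the EGR site GCGNGGGCG, the TATA box TATAAA and the serum response element, which was searched by its CArG core. The core TGACG also lies within the full cyclic AMP response element. Fos held the core TGACG from base -129 and again from base -66 relative to the start site, and the TATA box from base -33. Fosb held TGACG from base -60 and the EGR site from base -50. Jun held the Jun-type AP-1 site from base -45, and Junb held TGACG from base -106. Outside the 4 printed promoters, Fosl2 held an EGR site from base -79, and Jund and Ier3 held no match. Over 32841 RefSeq promoter windows of the same length, TGACG was found in 17.8%, the TATA box in 12.4%, the AP-1 site in 6.75%, the EGR site in 4.70%, the Jun-type site in 2.93%, the full cyclic AMP response element in 1.55% and the serum response element in 1.47%. None of the member windows held a serum response element. Bases further upstream were not searched, so this does not show that a gene lacks the element. A match describes letters in this window and not a bound site. The GC content was 58.4% for Fos, 68.8% for Fosb, 61.2% for Jun and 66.4% for Junb, against a median of 52.4% over all windows.

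**Figure D1:**
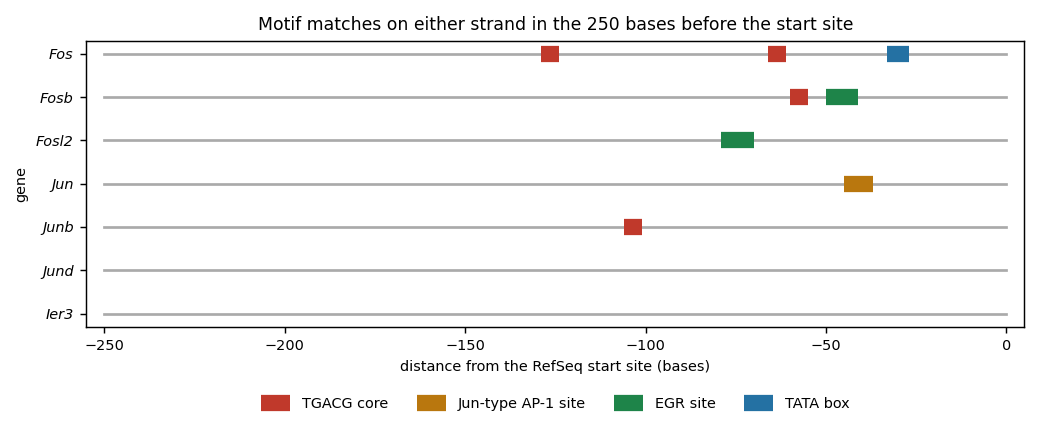
Motif matches on either strand in the 250 bases before the RefSeq start site of 7 of the genes; the x axis is the distance from the start site in bases and each coloured block is a match. Fos carries 3 matches, Fosb 2, and Fosl2, Jun and Junb 1 each.

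Levels between the genes are compared as FPKM, which divides by transcript length. In the control libraries the order was Ier3 at 297 ± 15.5 FPKM (mean ± SD, n = 2), Jun at 154 ± 4.99, Junb at 47.7 ± 0.679, Jund at 34.7 ± 1.51 and Egr1 at 30.7 ± 1.34. Fosl1 followed at 25.3 ± 2.47, Fosl2 at 11.3 ± 0.0919, Ier2 at 9.44 ± 0.636, Fos at 4.61 ± 0.580 and Fosb at 1.52 ± 0.728 FPKM. No neighbours in this order overlapped between the control libraries. In PQ, Fosl1 at 48.5 ± 0.141 FPKM moved up to lie beside Jund at 50.1 ± 5.33, and these neighbours overlapped. Egr1 came next at 20.8 ± 0.445 FPKM. In NAC, Egr1 at 46.3 ± 3.26 FPKM stood above Jund at 32.3 ± 3.60 and Fosl1 at 19.1 ± 1.48. Fos, at 11.6 ± 2.72 FPKM in NAC, overlapped with Ier2 at 9.93 ± 1.93, which overlapped with Fosl2 at 8.32 ± 1.41.

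A gene was called changed where edgeR's quasi-likelihood test gave a Benjamini-Hochberg adjusted p, taken over all 11717 genes, under 0.05. In PQ against control, 4 of the 10 genes rose (Fos, Fosl1, Junb and Jund) and 1 fell (Egr1), where 9.76% of all genes tested rose and 9.45% fell. Without PQ library 1, 3 of the 10 were called and the count over all genes was 866 in place of 2250. In NAC against control, 3 rose (Fos, Junb and Egr1) and 2 fell (Fosl1 and Fosl2), where 9.01% of all genes rose and 9.64% fell. Without NAC library 1, 3 of the 10 were called and 1286 genes in all in place of 2186, and without NAC library 2 the count over all genes was 1427. The direct comparison of PQ with NAC called 5 of the 10 higher in PQ (Fosb, Fosl1, Fosl2, Jund and Ier3) and 3 lower (Fos, Junb and Egr1), against 16.0% and 15.7% of all genes. There, the count over all genes was 2343 without PQ library 1 and 2407 without NAC library 1, in place of 3708. Without PQ library 2 the test called 3 of the 10, and without NAC library 2 it called 5. The median log2 fold change of the 10 genes was 0.34 in PQ against control, -0.08 in NAC against control and 0.14 in PQ against NAC, and that of all genes tested was 0.00 in each. PQ against control and NAC against control share their control libraries, so their values are given side by side. In bulk RNA, fewer cells that make a transcript and less transcript per cell cannot be told apart.

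**Figure D2:**
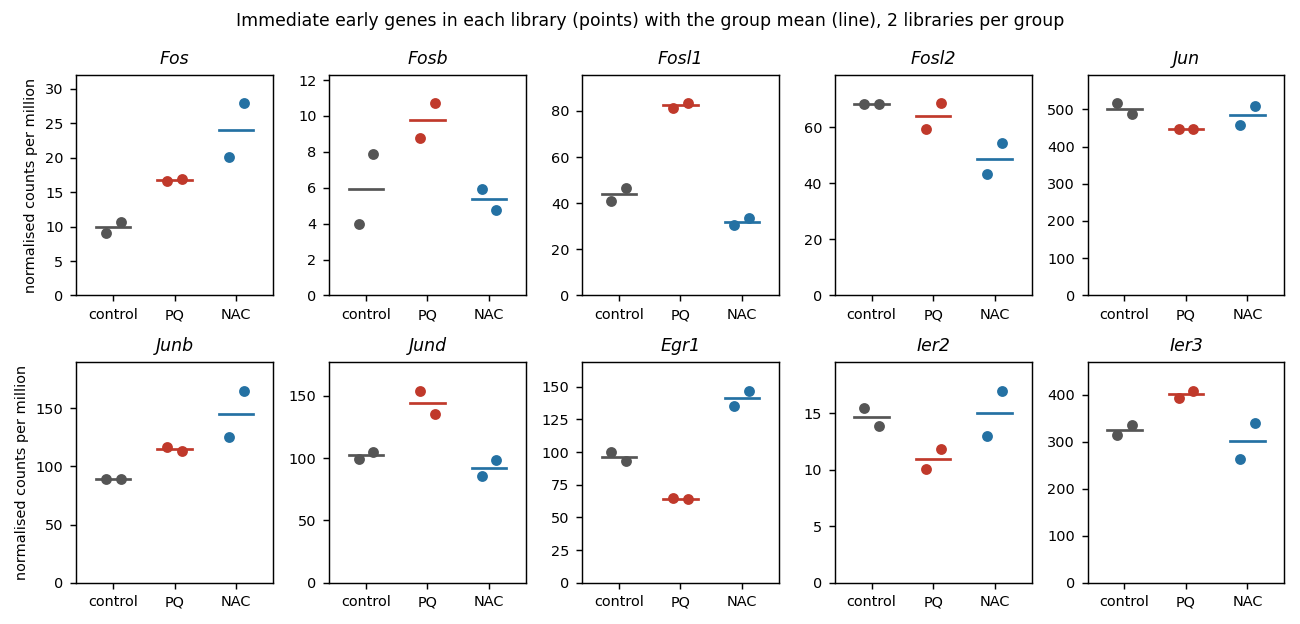
CPM (y axis, from 0) of the 10 genes in each library (points) with the group mean (line), for control, PQ and NAC. Fosl1 is highest in both PQ libraries (81.5 and 83.3), whereas Egr1 is lowest there (64.6 and 63.8) and highest in both NAC libraries (135 and 147).

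Fos encodes the prototype FOS protein, the partner that JUN proteins gain first after a stimulus. Its level was 9.06 and 10.7 CPM in control, 16.6 and 16.9 in PQ, and 20.1 and 27.9 in NAC. The 3 groups did not overlap, with control lowest and NAC highest. Fos rose 1.69-fold in PQ (log2 fold change 0.76 ± 0.18 SE, edgeR adjusted p = 0.0067) and 2.42-fold in NAC (1.28 ± 0.18, adjusted p = 3.8e-05). Among the 4 libraries labelled TRIZOL and BGISEQ-500, the values were 0.66 in PQ with an adjusted p of 0.063 and 1.16 in NAC with an adjusted p of 6.0e-07, and the column kit pair differed by 0.87 between PQ and control. Fos was lower in PQ than in NAC (log2 fold change -0.52 ± 0.16, edgeR adjusted p = 0.023). This last call was lost without PQ library 1 (-0.50, adjusted p = 0.11), without PQ library 2 (-0.53, adjusted p = 0.087) and without NAC library 2 (-0.27, adjusted p = 0.34), with the labelled protocol as a block (-0.46, adjusted p = 0.091) and in DESeq2's test (-0.51, adjusted p = 0.068). The highest deposited count of Fos was 281, in NAC library 2, and the lowest was 87, in control library 1.

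Fosl1 encodes FRA-1, a FOS protein without the strong activation domain of FOS that lasts through continued ERK signalling. It was at 41.0 and 46.6 CPM in control, 81.5 and 83.3 in PQ, and 30.4 and 33.5 in NAC. The groups were fully separate, in the order NAC, control and PQ. Fosl1 rose 1.88-fold in PQ (log2 fold change 0.91 ± 0.11, edgeR adjusted p = 1.3e-05). In NAC it fell (log2 fold change -0.46 ± 0.11, edgeR adjusted p = 0.0080), a call that was lost without control library 2 (-0.36, adjusted p = 0.060) and without NAC library 1 (-0.39, adjusted p = 0.10). Between PQ and NAC the difference was 2.58-fold (log2 fold change 1.37 ± 0.11, edgeR adjusted p = 4.9e-08). The PQ difference from control was 0.99 in the column kit pair and 0.84 in the TRIZOL pair, in log2 CPM.

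Fosl2 encodes FRA-2, the other long-lived FOS protein. Its level was 68.3 CPM in each control library, with 59.4 and 68.5 in PQ, and 43.2 and 54.4 in NAC. PQ overlapped with control, whereas both NAC libraries lay below every other library. Fosl2 fell in NAC (log2 fold change -0.49 ± 0.12, edgeR adjusted p = 0.0066) and was higher in PQ than in NAC (0.39 ± 0.12, adjusted p = 0.017). In PQ against control the value was -0.10 ± 0.12 (adjusted p = 0.62). The NAC call was lost without NAC library 1 (-0.33, adjusted p = 0.14) and in limma on log2(FPKM + 1) (-0.41, adjusted p = 0.058) and log2(FPKM + 0.1) (-0.44, adjusted p = 0.055). The PQ against NAC call was lost without PQ library 2 (0.29, adjusted p = 0.19), without NAC library 1 (0.23, adjusted p = 0.25) and in those limma fits (0.34, adjusted p = 0.071, and 0.37, adjusted p = 0.067).

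Fosb encodes FOSB, and in neurons a truncated splice form of it builds up under repeated stimulation; gene-level counts do not separate the forms. It was the least abundant of the 10 genes, with deposited counts from 38 to 102. It stood at 3.96 and 7.88 CPM in control, 8.79 and 10.7 in PQ, and 5.94 and 4.76 in NAC. Both PQ libraries lay above all others, and the control libraries lay on either side of the NAC libraries. The control libraries differed widely. In PQ against control the value was 0.71 ± 0.26 (edgeR adjusted p = 0.062), which was not called. It became 1.29 without control library 2 but was 0.44 within the TRIZOL libraries. The difference was 1.14 in the column kit pair and 0.43 in the TRIZOL pair, in log2 CPM. The value was called with the labelled protocol as a block (0.74, edgeR adjusted p = 0.025) and with no filter (0.70, edgeR adjusted p = 0.0074). In PQ against NAC, Fosb was 1.81-fold higher (log2 fold change 0.85 ± 0.26, edgeR adjusted p = 0.016), a call lost without PQ library 2 (0.71, adjusted p = 0.12) and without NAC library 2 (0.71, adjusted p = 0.12). It was also lost in limma on log2(FPKM + 1), where the value was 0.55 (adjusted p = 0.080), and on log2(FPKM + 0.1) (0.80, adjusted p = 0.098). In NAC against control it was -0.15 ± 0.28 (adjusted p = 0.77).

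Summed over the 4 FOS genes, the level was 40.0 and 45.5 FPKM in control, 68.8 and 70.7 in PQ, and 36.6 and 44.2 in NAC. Fosl1 was the most abundant FOS transcript in every library. It made up 59.0 and 59.6% of the sum in control, 70.4 and 68.7% in PQ, and 49.3 and 45.6% in NAC. Fos made up 10.5 and 11% in control, 11.6 and 11.2% in PQ, and 26.4 and 30.5% in NAC. The FOS pool of PQ libraries was thus larger with Fosl1 in the lead, while that of NAC libraries was near the control in size and held a larger share of Fos.

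**Figure D3:**
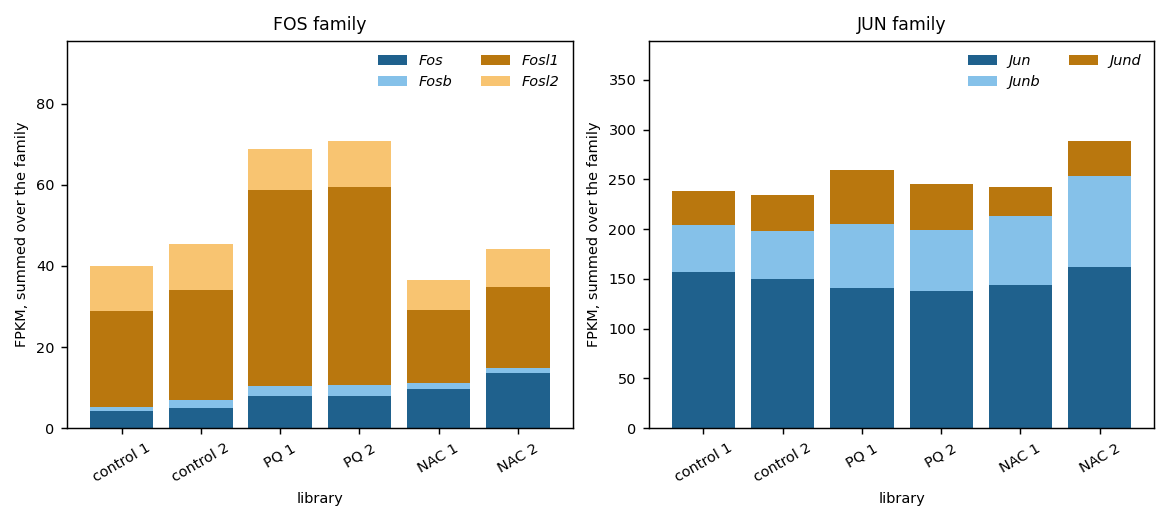
FPKM (y axis, from 0) of the FOS genes (left) and the JUN genes (right) stacked in each library (x axis). The FOS sum is 68.8 and 70.7 FPKM in the PQ libraries and at most 45.5 FPKM in the others, and Jun is the largest part of the JUN sum in all 6 libraries.

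Jun encodes the main partner of FOS proteins and is itself an AP-1 target. Its level was 516 and 488 CPM in control, 446 in both PQ libraries, and 458 and 509.6 in NAC. Both PQ libraries lay below all others, but by little. Jun passed the test in no comparison: the log2 fold change was -0.17 ± 0.09 in PQ against control (edgeR adjusted p = 0.21), -0.05 ± 0.09 in NAC against control (adjusted p = 0.74) and -0.12 ± 0.09 in PQ against NAC (adjusted p = 0.35).

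Junb encodes a JUN protein that can hold back JUN activity and restrain proliferation. It was at 88.7 and 89.5 CPM in control, 117 and 113 in PQ, and 125 and 165 in NAC. Every treated library lay above both controls. In NAC it rose 1.63-fold (log2 fold change 0.70 ± 0.11, edgeR adjusted p = 2.1e-04), and the value within the TRIZOL libraries was also 0.70. In PQ it rose 1.29-fold (0.37 ± 0.12, adjusted p = 0.031), with a difference of 0.41 in the column kit pair and 0.33 in the TRIZOL pair. The PQ call was lost without control library 1 (0.36, adjusted p = 0.063), PQ library 1 (0.34, adjusted p = 0.19) or PQ library 2 (0.40, adjusted p = 0.088), within the TRIZOL libraries (0.34, adjusted p = 0.16) and in limma on log2(FPKM + 1) (0.39, adjusted p = 0.070) and log2(FPKM + 0.1) (0.40, adjusted p = 0.069).

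Junb was lower in PQ than in NAC (log2 fold change -0.33 ± 0.11, edgeR adjusted p = 0.032). That difference depended on the NAC libraries: it was -0.12 (adjusted p = 0.51) without NAC library 2 and -0.52 (adjusted p = 0.0038) without NAC library 1. It was also not called without PQ library 1 (-0.36, adjusted p = 0.10), without PQ library 2 (-0.30, adjusted p = 0.16), with the block (-0.34, adjusted p = 0.066) and in limma on log2(FPKM + 1) (-0.33, adjusted p = 0.077) and log2(FPKM + 0.1) (-0.34, adjusted p = 0.077).

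Jund encodes the JUN protein that is most abundant in quiescent cells and is linked to protection from oxidative stress. Its level was 99.5 and 105 CPM in control, 154 and 135 in PQ, and 85.2 and 98.8 in NAC. The PQ libraries lay above all the others and the NAC libraries below all the others. Jund rose 1.42-fold in PQ (log2 fold change 0.51 ± 0.10, edgeR adjusted p = 0.0021) and was 1.58-fold higher in PQ than in NAC (0.66 ± 0.10, adjusted p = 9.7e-05). In NAC against control the value was -0.15 ± 0.11 (adjusted p = 0.36). The rise over control was 0.63 in the column kit pair and 0.37 in the TRIZOL pair, and the call was lost without PQ library 1 (0.41, adjusted p = 0.065) and within the TRIZOL libraries (0.37, adjusted p = 0.095).

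The JUN genes summed to 238 and 234 FPKM in control, 259 and 245 in PQ, and 243 and 288 in NAC, which made the JUN pool several times larger than the FOS pool in each library. Jun made up 66.0 and 64.2% of the sum in control, 54.2 and 56.2% in PQ, and 59.4 and 56.2% in NAC. In PQ the remainder was split between Junb, at 25.0 and 24.8%, and Jund, at 20.8 and 18.9%. In NAC it was mostly Junb, at 28.4 and 31.7%, with Jund at 12.3 and 12.1%.

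Egr1 encodes a zinc finger factor that ERK signalling induces together with Fos. It was at 100 and 93.1 CPM in control, 64.6 and 63.8 in PQ, and 135 and 147 in NAC. The groups were separate and lay on opposite sides of the control. Egr1 fell in PQ (log2 fold change -0.59 ± 0.10, edgeR adjusted p = 4.4e-04) and rose 1.46-fold in NAC (0.55 ± 0.10, adjusted p = 4.4e-04). PQ against NAC gave -1.14 ± 0.10 (adjusted p = 1.1e-07). Within the TRIZOL libraries the values were -0.54 in PQ, 0.60 in NAC and -1.14 between PQ and NAC, and the column kit pair differed by -0.63 between PQ and control. All 3 Egr1 calls held under each of the 14 alternatives tried. Fos and Egr1, which share upstream inputs, thus moved the same way in NAC and in opposite directions in PQ.

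Ier2 and Ier3 encode small proteins unrelated to AP-1, a nuclear protein and a membrane-bound regulator of ERK signalling and survival. Ier3 was the highest of the 10 genes per length. It was at 314 and 335 CPM in control, 394 and 409 in PQ, and 264 and 340.1 in NAC. The PQ libraries lay above all others, while NAC spanned the control. Ier3 was higher in PQ than in NAC (log2 fold change 0.41 ± 0.11, edgeR adjusted p = 0.0065), a call lost without PQ library 2 (0.38, adjusted p = 0.053) and without NAC library 1 (0.24, adjusted p = 0.16). Against control, PQ gave 0.31 ± 0.11 (adjusted p = 0.052), which passed the threshold without control library 2 (0.35, adjusted p = 0.043), without NAC library 1 (0.31, adjusted p = 0.029), without NAC library 2 (0.31, adjusted p = 0.031) in the fit of only the 2 groups compared (0.31, adjusted p = 0.030) and with no filter (0.30, adjusted p = 0.015). NAC against control gave -0.10 ± 0.11 (adjusted p = 0.56).

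Ier2 was at 15.5 and 13.9 CPM in control, 10.1 and 11.8 in PQ, and 13.0 and 17.0 in NAC. Both PQ libraries lay below all others, and no comparison passed the test: PQ against control gave -0.43 ± 0.18 (edgeR adjusted p = 0.10) and NAC against control 0.02 ± 0.17 (adjusted p = 0.95). PQ against NAC gave -0.45 ± 0.17 (adjusted p = 0.057), which passed the threshold without control library 1 (-0.45, adjusted p = 0.041), without control library 2 (-0.45, adjusted p = 0.042), and without NAC library 1 (-0.63, adjusted p = 0.032). It also passed in the fit of only the 2 groups compared (-0.45, adjusted p = 0.042), with no filter (-0.45, adjusted p = 0.035) and in limma on log2(FPKM + 0.1) (-0.46, adjusted p = 0.047). Within the TRIZOL libraries the PQ against NAC value was smaller, at -0.34, and was not called.

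**Figure D4:**
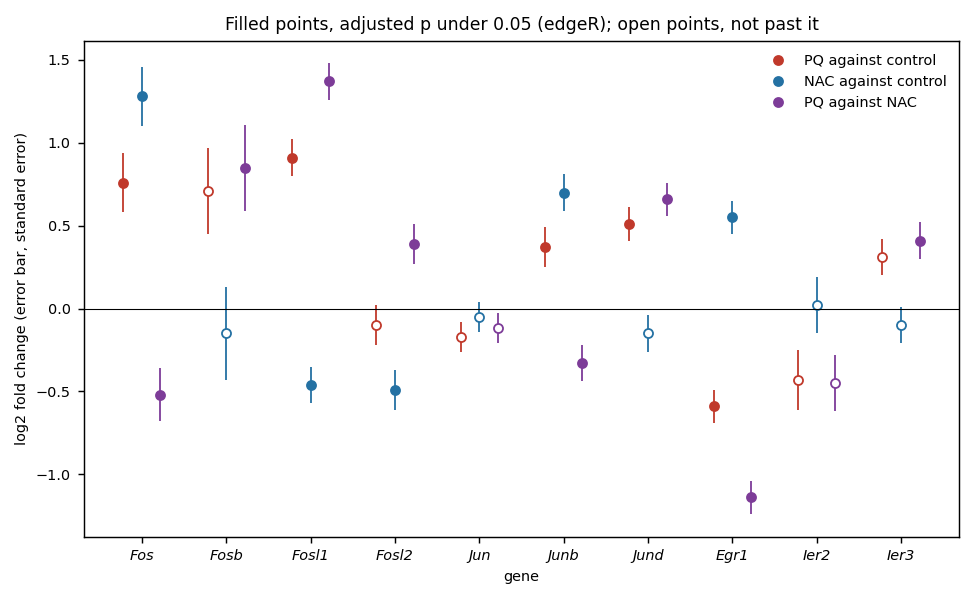
Log2 fold change (y axis; error bar, standard error) of each of the 10 genes (x axis) in PQ against control, NAC against control and PQ against NAC; filled points passed edgeR's adjusted p of 0.05. Egr1 is at -0.59 in PQ and 0.55 in NAC, Fos and Junb are above 0 in both, and Fosl1 is at 0.91 in PQ and -0.46 in NAC.

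The gene whose group means ranged most widely was Fosl1, over 1.37 log2 units. The 5 other tested genes with the closest pattern over the 6 libraries, by root mean square distance of log2 CPM from the control mean, were Hspb8 and Ak1 (both at a distance of 0.06), Gstt1 (0.10), and Srxn1 and Olfm1 (both 0.11). Hspb8 encodes a small heat shock protein, Ak1 an adenylate kinase, Gstt1 a glutathione transferase, Srxn1 the enzyme that repairs oxidised peroxiredoxins and Olfm1 a secreted olfactomedin. Their log2 fold changes in PQ against control ran from 0.73 for Gstt1 and Srxn1 to 0.97 for Hspb8.

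AP-1 proteins also pair with other basic leucine zipper proteins. Of 10 such genes, 7 were tested. By edgeR's adjusted p, 1 rose and 1 fell in PQ against control (median log2 fold change 0.06), where 9.76% of all genes rose and 9.45% fell. With NAC, 1 rose and 2 fell against control (0.06), where 9.01% of all genes rose and 9.64% fell, and none was called between PQ and NAC, where 16.0% of all genes were higher and 15.7% lower. Jdp2, which encodes a repressor that pairs with JUN, was at 25.0 and 17.9 CPM in control, 11.7 and 12 in PQ, and 7.43 and 9.62 in NAC. It fell in PQ (log2 fold change -0.86 ± 0.18, edgeR adjusted p = 0.0025) and in NAC (-1.33 ± 0.19, adjusted p = 4.5e-05), and the PQ call was lost within the TRIZOL libraries (-0.57, adjusted p = 0.14). Atf3, the stress-induced member, had 151 counts in control library 1 and 51 in control library 2, with 55 and 61 in PQ and 35 and 38 in NAC. Its fall in NAC (-1.57 ± 0.37, adjusted p = 0.0051) was lost under 5 of the 14 alternatives, among them that without control library 1 (-0.56, adjusted p = 0.27). Mafk was the gene that rose in both, and its calls were lost without control library 1 (0.68 in PQ, adjusted p = 0.092, and 0.57 in NAC, adjusted p = 0.17). They were also lost without PQ library 1 for PQ (0.62, adjusted p = 0.20), and without NAC library 1 (0.81, adjusted p = 0.072) or NAC library 2 (0.64, adjusted p = 0.16) for NAC, and under 4 and 7 of the 14 alternatives in all.

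The EGR axis was followed through 5 further genes, of which 3 were tested; Egr3 and Egr4 lay under the FPKM minimum. Nab2 encodes a co-repressor that EGR1 induces and that binds it in turn. It was at 96.1 and 87.9 CPM in control, 66.4 and 61.1 in PQ, and 104 and 109 in NAC. Nab2 fell in PQ (log2 fold change -0.53 ± 0.10, edgeR adjusted p = 0.0011) and was lower in PQ than in NAC (-0.74 ± 0.10, adjusted p = 1.6e-05), and in NAC against control it was 0.21 ± 0.10 (adjusted p = 0.15). Egr2 was at 10.4 and 8.08 in control, 12 and 13.5 in PQ, and 22.1 and 26.1 in NAC. It rose in NAC (1.38 ± 0.17, adjusted p = 1.0e-05) and was lower in PQ than in NAC (-0.92 ± 0.16, adjusted p = 2.5e-04), while PQ against control gave 0.46 ± 0.18 (adjusted p = 0.083). Nab1 was called in no comparison. The median log2 fold change of the 3 tested genes was 0.12 in PQ against control, 0.21 in NAC against control and -0.74 in PQ against NAC.

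Of 34 other immediate early genes, 29 were tested. In PQ against control 13 rose and 2 fell, with a median log2 fold change of 0.36, where 9.76% of all genes tested rose and 9.45% fell. Of these calls, 8 of the 13 rises and none of the 2 falls held in every fit that left out 1 library. Btg2, which encodes an antiproliferative cofactor, was at 12.6 and 11.5 CPM in control, 24.8 and 23.1 in PQ, and 12.1 and 14.2 in NAC. Its log2 fold change in PQ was 0.99 ± 0.15 (edgeR adjusted p = 2.1e-04). Sik1, a salt-inducible kinase gene, rose by 0.78 ± 0.15 (adjusted p = 0.0014) and Rhob, the gene of a stress-induced small GTPase, by 0.58 ± 0.10 (adjusted p = 3.4e-04). Klf10, a target of TGF-β, fell in PQ (-0.61 ± 0.11, adjusted p = 9.8e-04), and its value without PQ library 1 was -0.41 (adjusted p = 0.050, not called).

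Of the same 29 genes, 6 rose and 6 fell in NAC against control, with a median of 0.07, beside 9.01% and 9.64% of all genes. Only 2 of the rises (Zfp36 and Myc) and 1 of the falls (Sgk1) held in every fit that left out 1 library. Zfp36, whose protein speeds the decay of transcripts with AU-rich elements, was at 15.8 and 17.1 in control, 24.6 and 24.4 in PQ, and 33.8 and 40.2 in NAC. Like Fos and Junb, it rose in both, by 0.58 ± 0.14 in PQ (edgeR adjusted p = 0.0081) and by 1.17 ± 0.14 in NAC (adjusted p = 7.0e-06), and its PQ call was lost without PQ library 1 (0.57, adjusted p = 0.063) and within the TRIZOL libraries (0.52, adjusted p = 0.10). Myc was at 78.9 and 89.9 in control, 83.1 and 79.3 in PQ, and 136 and 140.0 in NAC, with a log2 fold change of 0.71 ± 0.10 in NAC (adjusted p = 4.1e-05). Sgk1, a kinase gene of growth factor signalling, fell in NAC (-0.65 ± 0.10, adjusted p = 1.1e-04). In PQ against NAC, 11 of the 29 were higher and 4 lower, with a median of 0.20, beside 16.0% and 15.7% of all genes, and 9 of the 11 and all 4 held when each library was left out.

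Classical AP-1 target genes numbered 14, of which 9 were tested. By edgeR's adjusted p, 5 rose and none fell in PQ against control (median log2 fold change 0.38), where 9.76% of all genes rose and 9.45% fell. With NAC, 1 rose and 5 fell against control (-0.33), beside 9.01% and 9.64% of all genes, and in PQ against NAC 8 were higher and none lower (0.81), beside 16.0% and 15.7%. Leaving out each library kept 4 of the 5 calls in PQ, 3 of the 5 falls but not the rise in NAC, and 6 of the 8 in PQ against NAC. Timp1, the gene that rose in NAC (0.39 ± 0.12, adjusted p = 0.029), was not called without control library 1 (0.34, adjusted p = 0.098) or NAC library 2 (0.18, adjusted p = 0.43), nor with the labelled protocol as a block (0.38, adjusted p = 0.079), and lost its call under 7 of the 14 alternatives. Plau, which has a low level, lost its fall in NAC (-1.14 ± 0.38, adjusted p = 0.043) without control library 1 (-0.93, adjusted p = 0.19), NAC library 1 (-1.09, adjusted p = 0.17) or NAC library 2 (-1.18, adjusted p = 0.13), and under 7 alternatives in all. Its PQ against NAC call (1.14 ± 0.38, adjusted p = 0.027) was lost without PQ library 2 (0.63, adjusted p = 0.36), NAC library 1 (1.10, adjusted p = 0.12) or NAC library 2 (1.19, adjusted p = 0.084), and under 6 in all. Of the genes that rose in PQ, Plaur lost its call without control library 1 (0.31, adjusted p = 0.20) and without PQ library 1 (0.38, adjusted p = 0.23), and under 4 in all.

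Spp1, the osteopontin gene and an AP-1 target, was at 592 and 575 CPM in control, 1149 and 1231 in PQ, and 355 and 362 in NAC. It rose in PQ (1.03 ± 0.09, adjusted p = 5.1e-07) and fell in NAC (-0.70 ± 0.09, adjusted p = 1.2e-05). Lif, the gene of a cytokine that steers progenitors towards glia, was at 15.1 and 17.9 in control, 43.8 and 38.7 in PQ, and 18.9 and 20.9 in NAC, and rose in PQ by 1.32 ± 0.14 (adjusted p = 4.3e-06). Hbegf, an EGF receptor ligand gene, fell in NAC (-0.86 ± 0.10, adjusted p = 4.2e-06). Mmp9, Mmp13 and Il6 had at most 3 counts in every library.

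**Figure D5:**
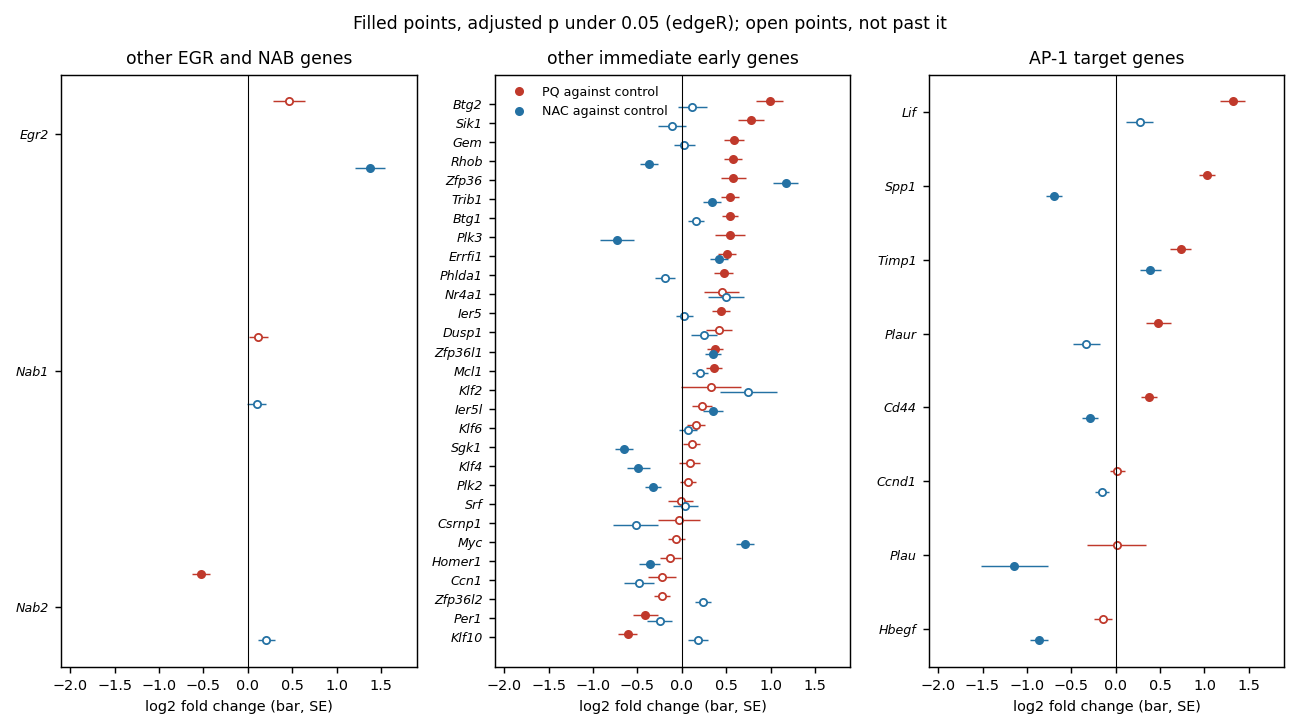
Log2 fold change (x axis; bar, standard error) in PQ against control and NAC against control of the tested genes (y axis) among the other EGR and NAB genes, the other immediate early genes and 8 of the 9 tested AP-1 targets; filled points passed edgeR's adjusted p of 0.05. Nab2 is at -0.53 in PQ, Egr2 at 1.38 in NAC, and Spp1 lies at 1.03 in PQ and -0.70 in NAC.

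Serum response factor and the MAP kinases feed these genes. Of 30 genes of this input, 29 were tested. By edgeR's adjusted p, 2 rose and 2 fell in PQ against control, beside 9.76% and 9.45% of all genes. With NAC, 2 rose and 3 fell against control, beside 9.01% and 9.64%, and 4 were higher and 4 lower in PQ than in NAC, beside 16.0% and 15.7%. Few of these calls were firm: without PQ library 1 none of the 4 PQ calls was made, without NAC library 1 only 1 of the 5 NAC calls was, and 2 of the 8 PQ against NAC calls held in every fit that left out 1 library. Their median log2 fold changes were -0.01, -0.03 and 0.01. Srf itself was called in no comparison, at 34.9 and 38.3 CPM in control, 42.1 and 30.4 in PQ, and 36.0 and 39.1 in NAC. Egfr, the receptor gene for the EGF in the medium, was at 175 and 159 in control, 149 and 137 in PQ, and 203 and 192 in NAC, and was lower in PQ than in NAC (-0.47 ± 0.10, adjusted p = 0.0010). These are transcript levels, and kinase activity was not measured in these libraries.

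Markers of other neural cell types also moved between the groups. Of 5 astrocyte markers, all tested, 3 rose in NAC (Gfap, Aqp4 and Slc1a3), and in PQ 1 rose and 1 fell. Over all genes tested, 9.01% rose and 9.64% fell in NAC, and 9.76% rose and 9.45% fell in PQ. Aldh1l1 went the other way in NAC but was not called (-0.49 ± 0.31, edgeR adjusted p = 0.31). In PQ against NAC, Gfap, Aqp4 and Slc1a3 were lower (-1.28, -1.91 and -0.77), beside 15.7% of all genes. Aldh1l1 was higher there (1.66), beside 16.0% of all genes. These PQ against NAC calls held under every alternative. The NAC call of Slc1a3 was lost without control library 2 (0.19, adjusted p = 0.25), NAC library 1 (0.28, adjusted p = 0.15) or NAC library 2 (0.31, adjusted p = 0.11), without PQ library 1 (0.29, adjusted p = 0.052) or PQ library 2 (0.29, adjusted p = 0.053), and with the labelled protocol as a block (0.33, adjusted p = 0.064). The PQ rise (Aldh1l1) was lost without PQ library 1 (0.93, adjusted p = 0.091) and within the TRIZOL libraries (0.80, adjusted p = 0.17), where the PQ fall (Slc1a3) was also lost (-0.32, adjusted p = 0.16). They summed to 110.3 and 96.6 FPKM in control, 78.1 and 79.7 in PQ, and 135 and 134 in NAC, with Slc1a3 the most abundant. Of the 6 oligodendrocyte lineage markers 4 were tested, and 3 rose in NAC and none in PQ, but none of the 3 calls held in every fit that left out 1 library. Their sums were 651 and 752, 767 and 666, and 815 and 925 FPKM, with Olig1 the most abundant in 5 libraries and Olig2 in control library 1, and Sox10 had at most 3 counts in every library. Of 5 neuron markers only Map2 was tested, which rose in NAC by 0.77 ± 0.10 (edgeR adjusted p = 1.1e-05). Map2 was lower in PQ than in NAC (-0.86 ± 0.10, edgeR adjusted p = 1.7e-06). The others were too low for a test, and Tubb3, at 4.26 and 2.31 CPM in control against 1.24 and 0.835 in PQ and 0.557 and 0.761 in NAC, lay below control in both. Syt1 was at 0.833 and 1.11 in control, 1.24 and 1.25 in PQ, and 0.279 and 0.496 in NAC. The neuron sums, with Map2 the most abundant, were 38.2 and 35.8 FPKM in control, 33.6 and 34.8 in PQ, and 65.3 and 58.6 in NAC.

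Among the 6 tested stem and progenitor markers, 1 rose and 2 fell in PQ, where 9.76% of all genes tested rose and 9.45% fell. With NAC, none rose and 2 fell, beside 9.01% and 9.64% of all genes. Of these marker calls, 1 of the falls in PQ held in every fit that left out 1 library. Among 6 microglial markers P2ry12 alone was tested, and it rose in NAC, a call lost without NAC library 1 (0.86, adjusted p = 0.090). Fibroblast markers summed to between 3.60 and 5.55 FPKM with Col3a1 the most abundant, and Lum had at most 3 counts in every library. Col3a1, the 1 of 4 that was tested, fell in PQ, whereas Dcn, which was too low for a test, was at 0.520 and 0.101 CPM in control and 2.29 and 0.835 in PQ. None of the 3 endothelial markers was tested, and Pecam1 was the most abundant of them. The part of any of these marker shifts in the values of the immediate early genes was not tested.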

How the data were processed

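The 6 libraries, 2 per group, were grouped by their labels. The NAC dose and culture conditions follow the study's methods. The authors deposited, for each gene, an expected count, an estimate that can be fractional where genes share reads, and an FPKM value. A gene missing from a library's table was given 0. The submitters' processing notes name TopHat2 2.0.11, Cufflinks 2.1.1 and mm9 for control library 1 and PQ library 1, and HISAT2 2.0.4, Bowtie2 2.2.5, RSEM and mm10 for the others; all 6 tables have columns of the type that RSEM writes. The study's methods name a stranded mRNA library kit, but whether strand was used in counting is not given in the sources used here, so reads of antisense or overlapping genes cannot be told apart.

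Symbols were found for 99.7% of the genes from the NCBI table of GRCm38.p6. Expected counts were rounded and tested with edgeR 4.0.16 in R 4.3.3 (TMM and the quasi-likelihood F test, all 6 libraries, without covariates). Genes entered the test if their FPKM averaged 1 or more. P-values were adjusted by Benjamini-Hochberg over all of them, with calls under 0.05. A standard error is the absolute log2 fold change divided by the square root of F. CPM values are TMM-normalised. The expected counts of all 10 genes were whole in every library. Library totals lay between 9680436 and 10698241, which sets a counting precision that is lowest for Fosb, Fos and Ier2.

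The members and lists were chosen with earlier results of these data known. Lists are described by counts and medians, with no set test. Up to 4 genes per list, direction and comparison were eligible to be named, by size of log2 fold change among those called with groups that did not overlap, and those printed were picked from these; Srf, Nab1, Egr3, Egr4, Prom1, Pecam1, Tubb3, Syt1, Dcn, Mmp9, Mmp13, Il6 and the markers listed by name were named after their values were seen. The scripts were tested on simulated data. The alternatives were DESeq2 size factors, no filter, DESeq2 1.42.0, the labelled protocol as a block, only the 2 groups compared, only the libraries labelled TRIZOL and BGISEQ-500, limma 3.58.1 on log2(FPKM + 1) and on log2(FPKM + 0.1), and leaving out each library. Motifs were searched in the 250 bases before each RefSeq start site.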

Additional observations from a re-analysis of the deposited data

How the results depend on the processing

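Of the 18 calls among the 30 comparisons of single members, 8 held under all 14 alternatives: Fosl1 and Egr1 in PQ against control, Fos, Junb and Egr1 in NAC against control, and Fosl1, Jund and Egr1 in PQ against NAC. Over 420 values, 363 kept direction and side of the threshold, 35 lost the call, 14 gained it and 8 changed sign. The sign changed only where no call was made: Fosl2 in PQ against control was 0.01 within the TRIZOL and BGISEQ-500 libraries, and ran from -0.20 to 0.0050 when each library was left out. In NAC against control, the values with each library left out ran from -0.55 to 0.44 for Fosb (0.0012 without NAC library 2), from -0.13 to 0.02 for Jun, from -0.18 to 0.20 for Ier2 (-0.05 without control library 2) and from -0.30 to 0.07 for Ier3. Of 102 calls of 61 other genes that were named or eligible to be, 53 held under every alternative. Of their 1428 values, 234 lost the call and none changed sign.

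Within the TRIZOL and BGISEQ-500 libraries, PQ against control called 993 genes in all and 2 members, with 1 library on each side. Limma on log2(FPKM + 1) called 5 members in PQ against NAC. Leaving out each library gave 866 to 2206 genes and 3 to 7 members in PQ against control, 1286 to 2126 and 3 to 5 in NAC against control, and 2343 to 4207 and 3 to 9 in PQ against NAC. A group left with 1 library was assumed to vary like the others. The causes of these shifts were not tested. The labels carry no numbers that pair libraries across groups. With the labelled protocol as a replicate block, the counts were 2067, 1689 and 2903 genes and 6, 5 and 6 members, and the deviations of control library 1 and PQ library 1 from their group means correlated at -0.04 across genes. Depth limits Fosb most, at 38 to 102 counts per library.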

Other observations

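Heat shock genes, which cells induce when proteins misfold, were counted beside the immediate early genes. Of 8 genes, 7 were tested, and 4 rose and none fell in PQ against control, with a median log2 fold change of 0.33, where 9.76% of all genes tested rose and 9.45% fell. With NAC, 1 rose and none fell against control, beside 9.01% and 9.64% of all genes, and 3 were higher and none lower in PQ than in NAC, beside 16.0% and 15.7%. Leaving out each library kept 2 of the 4 calls in PQ, not that in NAC, and 2 of the 3 in PQ against NAC. Hsph1, the gene of a large HSP70-type co-chaperone, was at 117 and 122 CPM in control, 167 and 176 in PQ, and 139 and 123 in NAC. Its log2 fold change in PQ was 0.52 ± 0.10 (edgeR adjusted p = 9.9e-04). Hspa1b, an inducible HSP70 gene, was at 4.58 and 5.98 in control, 11.3 and 12.1 in PQ, and 5.34 and 6.21 in NAC, and rose in PQ by 1.14 ± 0.21 (edgeR adjusted p = 7.0e-04). Hspa1b has a near-identical neighbour, Hspa1a, and the deposited counts of both are fractional, so the split between them is uncertain. Hspa1a was at 2.44 and 3.44 in control, 10.0 and 6.07 in PQ, and 2.04 and 2.82 in NAC. Its call in PQ (1.47 ± 0.29, edgeR adjusted p = 0.0017) was lost without PQ library 1 (1.05, adjusted p = 0.079) and within the TRIZOL and BGISEQ-500 libraries (0.82, adjusted p = 0.21). Hspa8, the gene that rose in both, lost its PQ call without control library 1 (0.22, adjusted p = 0.20), PQ library 1 (0.33, adjusted p = 0.097) or PQ library 2 (0.33, adjusted p = 0.064), and its NAC call without control library 1 (0.24, adjusted p = 0.15) or NAC library 1 (0.31, adjusted p = 0.12) and with the labelled protocol as a block (0.30, adjusted p = 0.086). Within the TRIZOL and BGISEQ-500 libraries its values were 0.22 in PQ (adjusted p = 0.40) and 0.24 in NAC (adjusted p = 0.20). Hspb1 had at most 3 counts in every library.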
